A study of Mus musculus with 6 samples.

Results

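The genes described here carry a fatty acid from the outside of an adipocyte to its activated form: the surface receptor gene Cd36, the fatty acid transport protein genes Slc27a1, Slc27a3 and Slc27a4, the cytosolic binding protein genes Fabp3, Fabp4 and Fabp5, and the long-chain acyl-CoA synthetase genes Acsl1, Acsl3 and Acsl4. They were taken by symbol, as a list of 10 genes, from a table of 49671 Ensembl genes. All 10 were found, each in a single row, and all 10 passed the filter on low counts that left 14946 genes to be tested.

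Long-chain fatty acids reach adipocytes as free acids or are released from lipoproteins at the capillary wall. CD36 binds them at the plasma membrane, FABPs bind them in the cytosol, and an acyl-CoA synthetase joins them to coenzyme A, which holds them in the cell and admits them to triglyceride synthesis or oxidation. The FATPs, products of the Slc27a genes, have acyl-CoA synthetase activity themselves and are named for their part in uptake. In adipocytes Cd36, Fabp4, Acsl1 and Slc27a1 are known targets of the nuclear receptor PPARgamma.

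The study compared 3 knockout libraries with 3 control libraries of one immortalised mouse preadipocyte line, differentiated in culture. The line was derived from inguinal white fat of 3 month old C57BL/6 mice carrying floxed Tcf7l2 (Tcf7l2 F/F), from cells sorted as positive for CD34, Sca1 and CD29 and negative for CD31, CD45 and Ter-119. Both groups carried SV40 large T antigen and CreERT2, a Cre recombinase switched on by 4-hydroxytamoxifen, each delivered by retrovirus. Knockout cells received 4-OH-Tam (4-hydroxytamoxifen) and control cells EtOH (ethanol), for 24 h, 2 days before differentiation began; the labels call the ethanol-treated floxed cells wild type. Both were then given 1 µM dexamethasone, 0.5 mM isobutylmethylxanthine and 5 µg/mL insulin for 2 days, kept in insulin, and collected at day 8. An agent at 5 nM is also listed, under the code names W1932, W1933 and W1934 for knockout replicates 1, 2 and 3 and W1929, W1930 and W1931 for control replicates 1, 2 and 3. These codes rise by 1 from library to library, and whether they name 6 different agents is uncertain. The drug and the deletion always come together, and their parts cannot be told apart. Nothing in the labels says that the libraries of a group are separate cultures, and the p-values then reflect no more than library-to-library spread, in part possibly technical.

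Libraries held 26764263 to 31520011 counts in the knockout group and 26621293 to 33484764 in the control group. Tcf7l2, counted over the whole gene, was at 6.12 ± 0.638 CPM (TMM-scaled read counts, made comparable in library size) in knockout and 7.65 ± 1.49 CPM in control libraries (SD, n = 3 each) without passing the test (edgeR adjusted p = 0.125, log2 fold change -0.32, SE 0.14). Its level overlapped between the groups, at 5.65 to 6.84 CPM in knockout and 6.12 to 9.11 CPM in control libraries. Among the alternative fits it was called only without control replicate 2 (log2 fold change -0.46, edgeR adjusted p = 0.0322). The floxed exons are not named in the labels, so this value does not check the labels. All 9 markers of adipocytes, among them Adipoq, Lep and Plin1, were called higher in knockout cells, with a summed level of 3473 to 3560 CPM in knockout and 2068 to 2149 CPM in control libraries. The 9 preadipocyte and stromal markers summed to 3610 to 3732 CPM in knockout and 3564 to 3779 CPM in control libraries, and 1 of them, Thy1, was called lower. The sum joins markers that moved in opposite directions. Ly6a (917 CPM in knockout, 670 CPM in control) was higher in every knockout library. Pdgfra (1134 CPM in knockout, 1246 CPM in control), Itgb1 (1030 CPM in knockout, 1110 CPM in control) and Thy1 were lower in every knockout library. Such separation was seen in 18.5% (higher) and 19.3% (lower) of tested genes.

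Most genes of fatty acid uptake, binding and activation were higher in knockout cells, and the most abundant member of each family was among those that rose. Cd36, Fabp4, Fabp5, Slc27a1, Acsl1 and Acsl3 rose, by 1.18-fold to 1.70-fold, none of the 10 fell, and Fabp3, Slc27a3, Slc27a4 and Acsl4 were not called. These 6 calls of 10 stand beside 22.4% of all tested genes called in either direction, 11.9% called higher and 10.5% called lower (edgeR quasi-likelihood test, adjusted p under 0.05 over all genes). In 7 members every knockout library lay above every control library, as in 18.5% of tested genes, and in 1 member, Acsl4, every knockout library lay below, as in 19.3%. The median log2 fold change was 0.44 over the 10 members and -0.0017 over all tested genes. In bulk RNA, more cells that express a gene and more of its RNA per cell cannot be told apart. The part of the higher adipocyte markers in these changes was not tested.

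**Figure D1:**
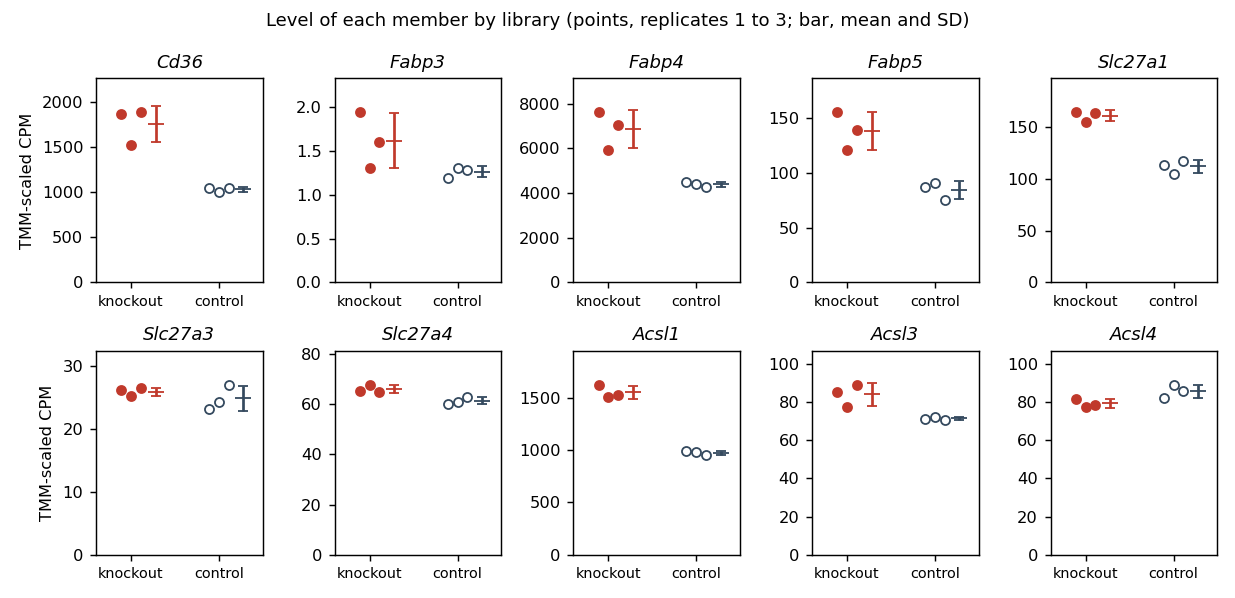
TMM-scaled CPM of each member in every library, knockout left and control right in each panel, with points in replicate order and a bar for the mean and SD of 3 libraries. Cd36, Fabp4 and Acsl1 separate widely, at 1760, 6864 and 1551 CPM on average in knockout and 1033, 4388 and 972 CPM in control libraries, whereas Slc27a3 and Fabp3 overlap.

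Cd36 (ENSMUSG00000002944, GRCm38 chromosome 5, 17781690 to 17888801, minus strand) showed the largest rise of the 10. Its level was 1868, 1524 and 1889 CPM in knockout replicates 1, 2 and 3, against 1047, 1006 and 1048 CPM in control replicates 1, 2 and 3. The groups did not overlap, although knockout replicate 2 was well below the other knockout libraries. The rise was 1.70-fold (log2 fold change 0.77, SE 0.073, edgeR adjusted p = 1.39e-05). CD36 is also a receptor of macrophages and capillary endothelium. Of 8 macrophage and leukocyte markers, Adgre1 had no count and Ptprc was at 0.0106 CPM in knockout and 0.0236 CPM in control libraries. The 8 summed to 7.29 to 8.40 CPM in knockout and 6.58 to 7.94 CPM in control libraries. Most of that sum was Csf1r, Cd14 and Cd68, at 2.75, 2.55 and 1.75 CPM in knockout and 2.85, 2.36 and 1.44 CPM in control libraries. Of 7 endothelial markers, Cldn5 had no count and Cdh5 was at 0.0124 CPM in knockout and 0.0225 CPM in control libraries. The 7 summed to 26.7 to 28.4 CPM in knockout and 23.4 to 25.3 CPM in control libraries, mostly Kdr (1.30-fold higher, called) and Tek. Whether such cells contributed to the level of Cd36 was not tested.

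Slc27a1 (ENSMUSG00000031808, GRCm38 chromosome 8, 71568882 to 71587302, plus strand) encodes FATP1, the transport protein typical of fat and muscle, which moves to the cell surface on insulin stimulation. It was at 164.5, 154.9 and 164.1 CPM in the knockout libraries and 113.7, 105.2 and 117.7 CPM in the control libraries. All knockout libraries were higher, and the rise was 1.44-fold (log2 fold change 0.52, SE 0.052, edgeR adjusted p = 1.04e-05). Slc27a4 (ENSMUSG00000059316, GRCm38 chromosome 2, 29802634 to 29817522, plus strand), which encodes the widely expressed FATP4, was at 65.3, 67.6 and 64.9 CPM in knockout and 60.1, 60.8 and 62.9 CPM in control libraries. Here too the groups did not overlap, but the difference was small and was not called (log2 fold change 0.11, 95% interval 0.0015 to 0.21 before adjustment, edgeR adjusted p = 0.141). Slc27a3 (ENSMUSG00000027932, GRCm38 chromosome 3, 90385239 to 90389938, minus strand), which encodes FATP3, was the lowest of these 3 transport protein genes. It was at 26.2, 25.3 and 26.5 CPM in knockout and 23.2, 24.4 and 27.1 CPM in control libraries. These groups overlapped, and the interval of the log2 fold change ran from -0.087 to 0.22 (edgeR adjusted p = 0.565). Within each library, Slc27a1 had 2.52, 2.29 and 2.53 reads per read of Slc27a4 in knockout and 1.89, 1.73 and 1.87 in control libraries. The ratio was higher in all knockout libraries (exact 2-sided permutation test, p = 0.1, the smallest that 3 libraries against 3 can give).

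The start-site regions of these surface genes are shown because Tcf7l2, the gene targeted, encodes a factor that binds short DNA motifs of the TCF/LEF type. RefSeq windows on GRCm38.p6, from 250 bases before to 50 after a start site, were at hand for 8 of the 10 genes, 11 windows in all. Fabp4 and Fabp5 had none. They were searched on both strands for the TCF/LEF core ATCAAAG and its variants with AACAAAG or with TTCAAAG instead, and 3 of the 11 windows held a match, against 13.9% of all 32851 promoter windows. Those 3 follow, 5′ to 3′ on the strand of the gene, with the matched letters in capitals. They are Cd36 at chr5:17835847-17836146 (minus strand), the most downstream of 3 Slc27a1 windows at chr8:71570344-71570643 (plus strand) and Slc27a3 at chr3:90389889-90390188 (minus strand).
Cd36: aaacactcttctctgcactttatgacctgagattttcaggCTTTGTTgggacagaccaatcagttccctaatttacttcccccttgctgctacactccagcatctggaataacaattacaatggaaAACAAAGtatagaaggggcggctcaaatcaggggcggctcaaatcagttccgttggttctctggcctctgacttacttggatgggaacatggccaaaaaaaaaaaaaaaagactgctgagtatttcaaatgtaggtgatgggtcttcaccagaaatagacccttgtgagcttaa
Slc27a1: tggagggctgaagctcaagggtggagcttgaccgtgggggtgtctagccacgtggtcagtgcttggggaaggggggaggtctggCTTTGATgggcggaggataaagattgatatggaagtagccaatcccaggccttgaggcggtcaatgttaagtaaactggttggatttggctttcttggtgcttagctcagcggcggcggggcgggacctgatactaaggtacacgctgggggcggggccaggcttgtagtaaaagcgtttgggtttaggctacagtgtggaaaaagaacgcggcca
Slc27a3: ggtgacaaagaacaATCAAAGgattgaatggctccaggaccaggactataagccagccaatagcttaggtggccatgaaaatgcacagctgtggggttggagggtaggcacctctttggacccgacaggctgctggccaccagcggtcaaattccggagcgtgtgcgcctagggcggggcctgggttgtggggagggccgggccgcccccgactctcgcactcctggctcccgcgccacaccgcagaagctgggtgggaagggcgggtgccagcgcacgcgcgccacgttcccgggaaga

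Cd36 held AACAAAG on the gene's strand at position -124 from the start site and its reverse complement, CTTTGTT, at position -210. Slc27a1 held CTTTGAT, the reverse complement of the core, at position -166, and Slc27a3 held ATCAAAG at position -236. Of these genes, Cd36 and Slc27a1 rose and Slc27a3 was not called. A match is a run of letters and does not show binding. Of all windows, 5.85% hold AACAAAG, 3.73% the core ATCAAAG and 5.14% the form TTCAAAG. The hexamer AGGTCA, read by PPAR and other nuclear receptors, was found in Cd36 alone among the 11 windows, as its reverse complement TGACCT at position -228, against 16.3% of all windows. The paired form that PPAR and RXR bind, AGGTCA repeated in the same direction after a single spacer base, was in none of the 11 and in 0.0396% of all windows. CCAAT, read on either strand, was in windows of Cd36, Slc27a1, Slc27a3, Acsl1 and Acsl3 and in 37.4% of all windows.

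Fabp4 (ENSMUSG00000062515, GRCm38 chromosome 3, 10204088 to 10208576, minus strand), the adipocyte fatty acid binding protein also called aP2, had the highest count of the 10 in every library. It was at 7607, 5947 and 7037 CPM in knockout and 4508, 4390 and 4265 CPM in control libraries. The groups did not overlap and the rise was 1.56-fold (log2 fold change 0.65, SE 0.077, edgeR adjusted p = 7.64e-05). Fabp5 (ENSMUSG00000027533, GRCm38 chromosome 3, 10012548 to 10016607, plus strand), which encodes the epidermal form that adipocytes also make, was at 155.5, 120.8 and 139.8 CPM in knockout and 87.4, 91.4 and 75.0 CPM in control libraries, again without overlap. It rose 1.64-fold (log2 fold change 0.71, SE 0.10, edgeR adjusted p = 0.0017). Fabp4 had 48.9, 49.2 and 50.3 reads per Fabp5 read in knockout and 51.6, 48.0 and 56.9 in control libraries. This ratio overlapped between the groups (exact 2-sided permutation test, p = 0.4), which does not show that it was equal.

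Reads of Fabp5 may be shared with 5 annotated processed pseudogenes whose sequences match its coding sequence at 93.6% to 98.3% identity. The closest, Gm6166, had 143, 160 and 151 counts in knockout and 80, 53 and 62 in control libraries. Together the copies held 3.53% to 4.72% of the summed counts in knockout and 2.49% to 3.77% in control libraries. With them added, the log2 fold change of Fabp5 was 0.73 (SE 0.097, edgeR adjusted p = 0.000786).

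Fabp3 (ENSMUSG00000028773, GRCm38 chromosome 4, 130308595 to 130315463, plus strand), the heart and muscle form, was near the bottom of the range, with 34 to 58 counts in a library. It was at 1.94, 1.31 and 1.60 CPM in knockout and 1.19, 1.31 and 1.28 CPM in control libraries, which overlapped, and it was not called (log2 fold change 0.36, 95% interval -0.062 to 0.78, edgeR adjusted p = 0.218). Its exons share 9.84% of their bases with Zcchc17 on the opposite strand, whose mean over the 6 libraries was 51.2 CPM, and reads of the pair can be told apart only if counting used strand. On chromosome 3, Fabp5 and Fabp4 lie 187480 bases apart with 2 other family genes, Pmp2 and Fabp9, between them. The nearest edge of Fabp12, on the minus strand, is 35632 bases beyond Fabp4. Pmp2 and Fabp9 were too low to be tested. Fabp12, outside the 10 and chosen after its values were seen, rose 2.24-fold at a very low level, 0.510 ± 0.0503 CPM in knockout and 0.221 ± 0.0666 CPM in control libraries (SD, n = 3 each, edgeR adjusted p = 0.0274).

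**Figure D2:**
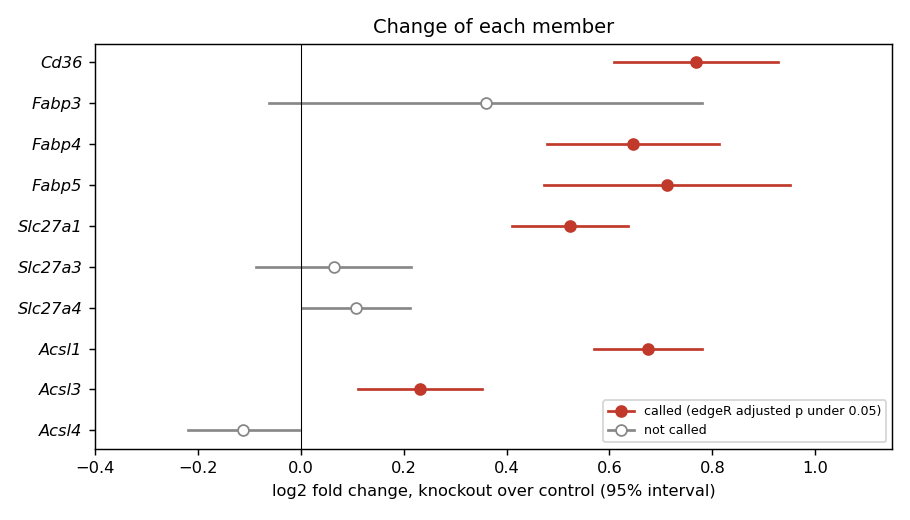
Log2 fold change of each member, knockout over control, with its 95% interval from the edgeR fit over all genes, filled where called. The rises of Cd36, Fabp4, Fabp5, Slc27a1 and Acsl1 lie between 0.52 and 0.77, Acsl3 is at 0.23, and Acsl4 is the only member below 0, at -0.11.

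Acsl1 (ENSMUSG00000018796, GRCm38 chromosome 8, 46471037 to 46536051, plus strand), the main long-chain acyl-CoA synthetase of adipocytes, had the lowest p of the 10 and ranked 44 of 14946 tested genes by p. It was at 1622, 1509 and 1523 CPM in knockout and 988, 980 and 948 CPM in control libraries. The groups were widely apart, with little spread within either, and the rise was 1.60-fold (log2 fold change 0.67, SE 0.049, edgeR adjusted p = 9.43e-07). Acsl3 (ENSMUSG00000032883, GRCm38 chromosome 1, 78657825 to 78707743, plus strand) encodes a synthetase of the endoplasmic reticulum and of nascent lipid droplets. It was at 85.4, 77.4 and 89.0 CPM in knockout and 71.3, 72.35 and 70.6 CPM in control libraries. The groups did not overlap, and the rise was 1.18-fold (log2 fold change 0.23, SE 0.056, edgeR adjusted p = 0.0087). It lost the call without knockout replicate 3 (log2 fold change 0.19, edgeR adjusted p = 0.0662, with 0.000251 to 0.0662 over the alternatives). Its exons share 5.6% of their bases with Utp14b (33.1 CPM) on the same strand, and reads there could be assigned to neither gene or to both.

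Acsl4 (ENSMUSG00000031278, GRCm38 chromosome X, 142317993 to 142390535, minus strand) encodes a synthetase that prefers arachidonic acid and feeds it into phospholipids. It was the only member lower in knockout cells, at 81.6, 77.3 and 78.6 CPM in knockout and 82.1, 88.9 and 85.6 CPM in control libraries. Every knockout library was below every control library, but the margin between the nearest pair was under 1 CPM, and the difference was not called (log2 fold change -0.11, 95% interval -0.22 to -0.0042 before adjustment, edgeR adjusted p = 0.131). Acsl1 stood higher against Acsl4 in each library, with 19.9, 19.5 and 19.4 Acsl1 reads per Acsl4 read in knockout and 12.0, 11.0 and 11.1 in control libraries. The ratio of Acsl1 to Acsl3 was 19.0, 19.5 and 17.1 in knockout and 13.9, 13.5 and 13.4 in control libraries. Neither ratio overlapped between the groups (exact 2-sided permutation test, p = 0.1 for each, the smallest possible here). For Acsl4 the outcome was fixed by the levels above, with Acsl1 higher and Acsl4 lower in every knockout library. There the test adds nothing to those levels.

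Levels of different genes were compared as CPM per kilobase of annotated exon. On this scale Fabp4 was highest, at 1529 ± 188 in knockout and 977 ± 27.1 in control libraries (SD, n = 3 each). Cd36 followed with 490 ± 57.0 in knockout and 288 ± 6.73 in control libraries, and Acsl1 with 148 ± 5.86 in knockout and 92.7 ± 2.04 in control libraries. Far below them came Fabp5 (38.9 in knockout, 23.7 in control), Slc27a1 (27.6 in knockout, 19.2 in control) and Acsl3 (19.3 in knockout, 16.4 in control). Slc27a4 (14.95 in knockout, 13.9 in control), Acsl4 (14.6 in knockout, 15.8 in control), Slc27a3 (10.1 in knockout, 9.68 in control) and Fabp3 (1.96 in knockout, 1.53 in control) were lowest. Slc27a4 and Acsl4 overlapped in knockout libraries and Acsl3 and Acsl4 overlapped in control libraries, while other neighbours in the order did not overlap within a group. Annotated transcripts that retain introns lengthen the exons of Fabp4 to 4489 bases, against 896 bases in its protein-coding transcript, and those of Fabp5 to 3567 against 987 bases. With the longest protein-coding transcript Fabp4 was at 7660 in knockout and 4897 in control libraries on the same scale, and the order of the 10 did not change. With the longest annotated transcript Slc27a1 passed Fabp5, at 50.3 against 42.8 in knockout and 35.0 against 26.1 in control libraries, and Acsl1 was at 273 in knockout and 171 in control libraries.

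The make-up of the 3 members of each family differed between groups in the transport protein and synthetase genes. Slc27a1 made up 53.0%, 51.3% and 52.9% of the summed level per kilobase of the 3 transport protein genes in knockout and 46.2%, 43.6% and 44.9% in control libraries. Acsl1 made up 81.7%, 81.8% and 80.6% of the 3 synthetase genes in knockout and 74.9%, 73.9% and 73.8% in control libraries. In both sets the gene that dominates in control cells had a larger share in every knockout library. The share of Acsl4 was 7.97% to 8.12% in knockout and 12.1% to 13.0% in control libraries. Among the binding protein genes Fabp4 held 97.4% ± 0.0415 in knockout and 97.5% ± 0.192 in control libraries (SD, n = 3 each), which overlapped. With protein-coding transcript lengths Slc27a1 held 67.5% in knockout and 60.6% in control libraries, and Acsl1 91.65% in knockout and 87.9% in control libraries. The members are not the whole families. With all 5 Acsl genes, Acsl1 held 71.1% in knockout and 62.3% in control libraries, and Acsl5, at 26.1 CPM per kilobase in knockout and 23.8 in control libraries, stood above Acsl3 and Acsl4. With all 6 Slc27a genes, Slc27a1 held 51.05% in knockout and 42.4% in control libraries.

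**Figure D3:**
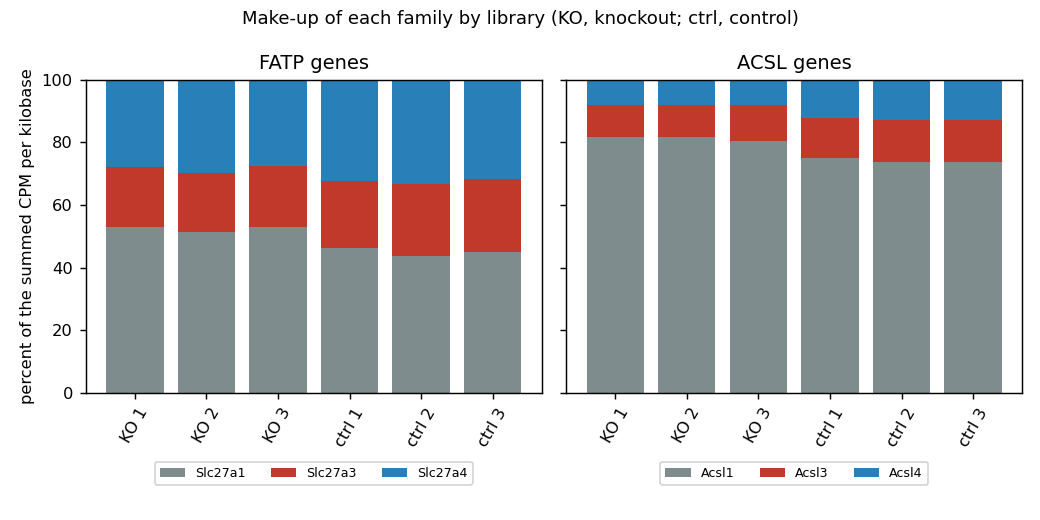
Share of each gene in the summed CPM per kilobase of the 3 members of its family, without Acsl5 or other non-members, 1 bar per library, knockout (KO) libraries left of control (ctrl) libraries. Slc27a1 is above 51% in every knockout library and below 47% in every control library, and Acsl1 is above 80% in every knockout library and below 75% in every control library.

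Set against Adipoq, the adiponectin gene, which is made by adipocytes alone and was 1.69-fold higher in knockout cells, the members compared as follows. Cd36 had 1.82, 1.61 and 1.92 reads per Adipoq read in knockout and 1.73, 1.70 and 1.89 in control libraries, and Fabp5 0.152, 0.127 and 0.142 in knockout and 0.144, 0.155 and 0.135 in control libraries. Both overlapped between the groups. The other 7 of the 9 members compared had fewer reads per Adipoq read in every knockout library than in any control library, Fabp3 being left out for its low counts. The mean ratio in knockout libraries was 92.5% of that in control libraries for Fabp4, 94.5% for Acsl1 and 85.0% for Slc27a1. For Acsl3, Slc27a4, Slc27a3 and Acsl4 it was 69.6%, 63.75%, 61.7% and 54.8%. Adipoq was chosen for this comparison with its own rise known, so these ratios are a description. For members that were not called they restate that rise. Adipoq had a log2 fold change of 0.75, against a median of -0.0017 over all tested genes. A gene with no change would also have fewer reads per Adipoq read in knockout libraries. The same holds for the other adipocyte markers, which were all called higher. The share of all tested genes that separate in this way was not computed, so 7 of 9 does not set the members apart. For Fabp4 and Acsl1 the direction of the ratio also depended on the marker. Against Plin4, the adipocyte marker with the smallest rise, the ratio in knockout libraries was 107.1% of that in control libraries for Fabp4, 109.3% for Acsl1 and 98.67% for Slc27a1, and all 3 overlapped between the groups. Against Lep, at 2.33 CPM in knockout and 0.598 CPM in control libraries, the ratios of all 9 members were lower in every knockout library. They ran from 22.47% of control for Acsl4 to 41.94% for Cd36. Lep had only 57, 78 and 70 counts in knockout and 27, 12 and 15 in control libraries, so these ratios rest on few reads. Over the 8 adipocyte markers other than Lep, the ratios of Fabp4 and of Acsl1 were lower in every knockout library for 2 and overlapped for 6. Those of Slc27a1 were lower in every knockout library for 6 and overlapped for 2, at 77.2% (Lipe) to 98.67% (Plin4) of control. The ratios of Cd36 and Fabp5 overlapped for all 8, and those of Acsl3, Acsl4, Slc27a3 and Slc27a4 were lower in every knockout library for all 8.

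**Figure D4:**
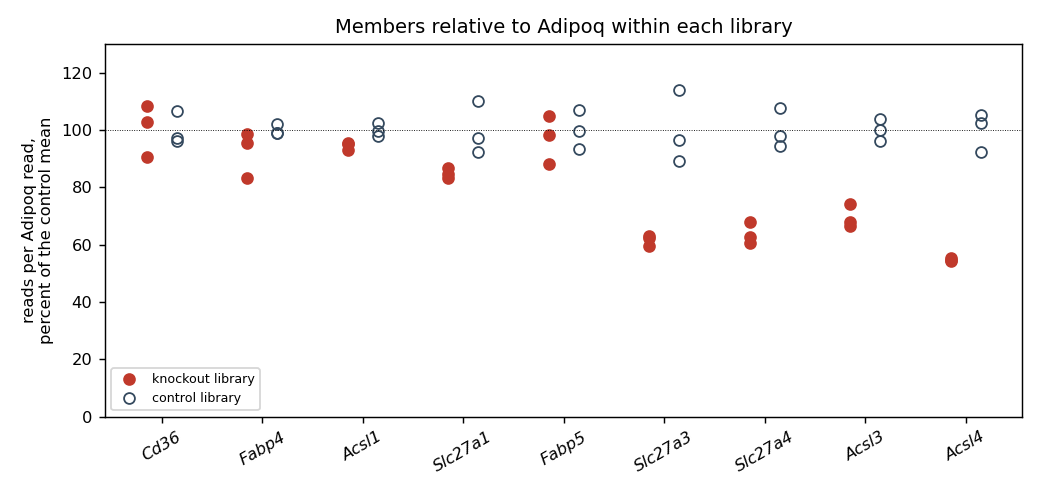
Reads of each member per Adipoq read within a library, as a percentage of the mean control ratio, knockout left of control for each gene. Cd36 and Fabp5 overlap between groups, Fabp4, Acsl1 and Slc27a1 average 85.0% to 94.5% in knockout libraries, and Acsl4 is lowest at 54.8%. Against Plin4 in place of Adipoq, Fabp4 and Acsl1 would average 107.1% and 109.3%.

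The knockout libraries were uneven in these genes. Among the knockout libraries, replicate 2 was lowest for 9 of the 10 members, the exception being Slc27a4, in which replicate 3 was lowest. The coefficient of variation of the knockout libraries was 11.6% for Cd36, 12.3% for Fabp4 and 12.5% for Fabp5, against 2.34%, 2.78% and 10.1% in control libraries. For Acsl1 and Slc27a1 it was 3.96% and 3.37% in knockout and 2.20% and 5.70% in control libraries. Replicate 2 also had the largest share of mitochondrial ribosomal RNA, with mt-Rnr2 at 1.21% of counts against 0.896% and 0.933% in the other knockout libraries, and 0.501% to 0.668% in control libraries. Whether this bears on the members was not tested. Without knockout replicate 2, or without it and control replicate 3 together, the same 6 members were called and none of the other 4.

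Around these members, the other genes of the pathway gave 31 higher, 7 lower and 23 not called among 61 tested of 80 listed, with a median log2 fold change of 0.24. Over all tested genes, 11.9% were called higher and 10.5% lower, and the share of pathway genes called lower (11.5%) was near that background. The lists were drawn up with earlier results of these data known, and 19 genes were too low to be tested. In the same 3 families outside the 10, together with the synthetase genes Acsbg1 and Acsbg2, 5 of 14 genes were tested. Of these 2 rose and 2 fell, Slc27a6 and Acsbg1 (median log2 fold change 0.08). The long-chain synthetase gene Acsl5 was at 127 ± 2.515 CPM in knockout and 116 ± 1.31 CPM in control libraries (SD, n = 3 each), 1.10-fold higher (edgeR adjusted p = 0.0435), and was not called in 9 alternatives, the stricter threshold of 0.01, DESeq2 (0.0728) and 5 of the 6 fits that left out a library among them. Its exons share 8.31% of their bases with Zdhhc6 on the opposite strand. Slc27a6, which encodes FATP6, fell 1.84-fold to 3.47 ± 0.244 CPM in knockout libraries, against 6.37 ± 0.472 CPM in control libraries (edgeR adjusted p = 0.00011, log2 fold change -0.88, SE 0.12). Acsbg1, a synthetase gene chosen after its values were seen, was 1.80-fold lower in knockout cells at under 1 CPM (edgeR adjusted p = 0.0367). The short- and medium-chain synthetase genes that could be tested, 5 of 11, were all called higher (median log2 fold change 0.45). Acss2, which makes acetyl-CoA from acetate, was at 472 ± 47.3 CPM in knockout and 244 ± 16.7 CPM in control libraries, 1.93-fold higher (edgeR adjusted p = 4.82e-06). Acss3 was 1.42-fold and Acsf2 1.365-fold higher.

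Genes that handle the product, acyl-CoA, moved in both directions. Among 14 tested acyl-CoA binding protein and thioesterase genes there were 5 rises, 3 falls and 6 without a call, with a median log2 fold change of 0.17. Called higher were 35.7% and lower 21.4%, beside 11.9% and 10.5% of all tested genes. Dbi, the main acyl-CoA binding protein, was at 649 ± 27.0 CPM in knockout and 450 ± 9.23 CPM in control libraries, 1.44-fold higher (edgeR adjusted p = 4.82e-06), Acbd4 rose 1.53-fold and the mitochondrial thioesterase gene Acot13 1.39-fold. The thioesterase genes Acot7 and Acot2 fell 1.25-fold and 1.195-fold. Acbd3 fell 1.13-fold, a call that needed control replicate 1 and knockout replicate 3 (without each, edgeR adjusted p = 0.0519 and 0.0732). Of 11 genes of the first steps of acyl-CoA use, 9 rose, or 81.8% beside 11.9% of all tested genes. None of the 11 fell and 2 were not called (median log2 fold change 0.59). Among them Agpat2 and Dgat2, of triglyceride synthesis, rose 1.725-fold and 1.705-fold, and Cpt1b, of mitochondrial fatty acid entry, 1.94-fold at a low level, 3.45 ± 0.429 CPM in knockout and 1.79 ± 0.398 CPM in control libraries. Its exons share 81.4% of their bases with a readthrough gene on the same strand, Gm44502.

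The 16 tested delivery and membrane partners of uptake gave 5 rises, 2 falls and 9 genes without a call, with a median log2 fold change of 0.0078. The 2 falls of 16 (12.5%) are near the 10.5% of all tested genes called lower. The 5 rises are 31.2% of the 16, beside 11.9% of all tested genes called higher. The fatty acid receptor genes Ffar4 and Ffar2 rose 1.84-fold and 1.44-fold, and the caveolin gene Cav2 rose 1.77-fold to 176.5 ± 11.2 CPM in knockout libraries, against 100 ± 5.79 CPM in control libraries. The lipoprotein receptor gene Vldlr and Lyn, the gene of a Src-family kinase known to act with CD36, fell 1.19-fold and 1.25-fold. Chosen after their values were seen, the genes of the CD36 palmitoylating enzymes Zdhhc4 and Zdhhc5 were not called (edgeR adjusted p = 0.652 and 0.274), and Got2, whose product is also known as a membrane fatty acid binding protein, was at 54.9 ± 4.21 CPM in knockout and 55.1 ± 2.00 CPM in control libraries (edgeR adjusted p = 0.969). Of 10 nuclear receptor and partner genes, 5 rose (50%, beside 11.9% of all tested genes) and 5 were not called (median log2 fold change 0.23). Ppara rose 2.065-fold, Rxrg 1.73-fold and Cebpa 1.42-fold, and Pparg, picked with its values known, rose 1.25-fold to 138 ± 8.77 CPM in knockout libraries, against 110.5 ± 4.65 CPM in control libraries (edgeR adjusted p = 0.000797).

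**Figure D5:**
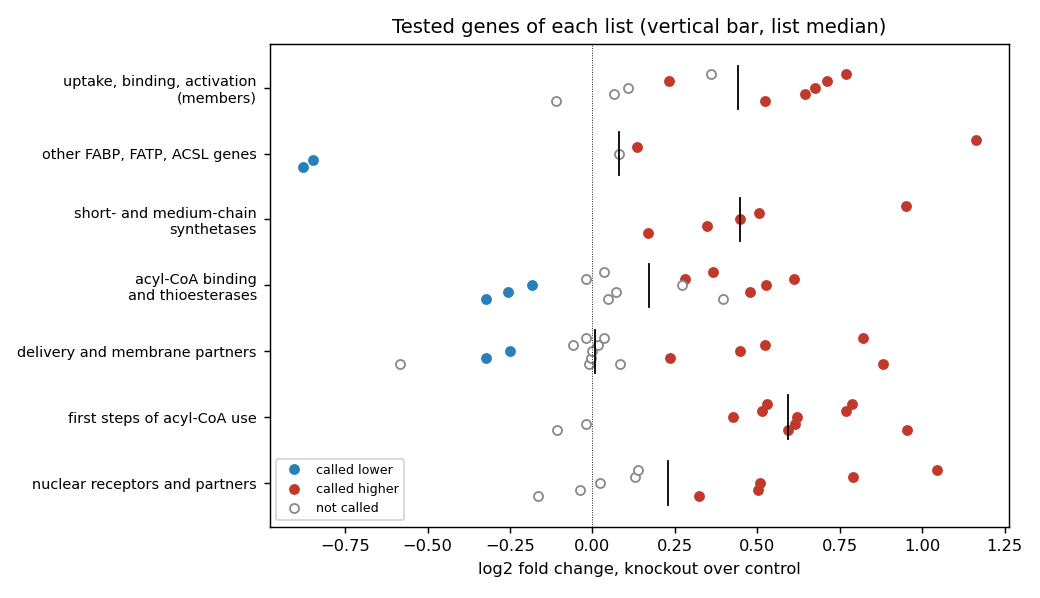
Log2 fold change, knockout over control, of every tested gene in the members' list and 6 lists of pathway genes, coloured by call, with a vertical bar at the list's median. The members' median is 0.44, that of the first steps of acyl-CoA use 0.59, and that of delivery and membrane partners 0.0078.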

How the data were processed

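RNA of 6 libraries (3 knockout, 3 control) was sequenced as strand-specific libraries depleted of ribosomal RNA, per the labels' protocols. The deposited table holds raw read counts per Ensembl gene. STAR 2.5.2b, featureCounts 1.5.1, DESeq2 1.16.0 and GRCm38 are named, without a role, in the submitters' processing notes. Not given in the sources used here were the annotation release, the strand setting and the treatment of multi-mapping reads. Columns were matched to libraries by the number in the sample titles, and libraries to groups by the genotype label. Symbols were found for 49326 of the 49671 gene identifiers. Libraries of a group all differed by more than sampling noise (chi-square per degree of freedom 4.29 to 14.8 within groups).

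All genes passing filterByExpr were fitted together in R 4.3.3 by the robust quasi-likelihood F-test of edgeR 4.0.16, with TMM scaling and group as the only term, with Benjamini-Hochberg adjustment over 14946 genes. A gene was called at an adjusted p under 0.05. The standard error is the log2 fold change divided by the square root of F. Levels are TMM-scaled CPM. Coordinates and exon lengths are from GENCODE M21 on GRCm38, which may differ from the release used for counting. Alternatives were other scalings, filters and thresholds, DESeq2 1.42.0, limma-voom (limma 3.58.1) and leaving libraries out. The test was tried on simulated counts first. The members, the lists and the omission of control replicate 3 with knockout replicate 2 were chosen with earlier results of these data known. Protein-coding transcript lengths and the summing of near copies were added after seeing the data. Beside the members and Tcf7l2, the text names up to 3 called genes per direction and list with the largest change and a mean log2 CPM of at least 0. Others are said to be chosen after their values were seen.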

Additional observations from a re-analysis of the deposited data

How the results depend on the processing

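The 10 members kept their direction in every alternative fit. The count of called members was 5 or 6 throughout, all higher, with Acsl3 lost without knockout replicate 3. Over 512 values for 32 genes, the 10 members and the 22 named by the rule, 499 kept direction and side of the threshold, 13 lost the call and 0 reversed. The 13 belong to Acsl3, Acsl5 and Acbd3. The other genes named (Fabp12, Acsbg1, Pparg, Zdhhc4, Zdhhc5, Got2 and the cell type markers) were not part of this count. The count of all called genes was 3346 in the main fit. With a library left out it ran from 2145 (without control replicate 1) to 3475 (without knockout replicate 2), and was 2178 without knockout replicate 3. Without control replicate 3 and knockout replicate 2 together it was 3957. The count of lower genes ran from 923 to 1646 with a library left out. At an adjusted p under 0.01 the count of all called genes was 1934, with 1105 higher and 829 lower. Calls of pathway genes ranged from 31 to 38. The log2 fold change of Tcf7l2 ran from -0.46 to -0.19 with a library left out (edgeR adjusted p = 0.0322 to 0.377). The cause of these shifts was not tested, and the fits that left libraries out also had fewer samples. With the longest annotated transcript as length, Slc27a1 held 65.3% of its family in knockout and 58.2% in control libraries, Acsl1 88.3% and 83.3%, and Fabp4 97.3% in knockout libraries. With the longest protein-coding transcript the same order of genes and groups gave 67.5% and 60.6%, 91.65% and 87.9%, and for Fabp4 98.2% in knockout and 98.25% in control libraries. These shares move because the lengths do. No paired analysis was possible because no replicate numbers appear in the labels. Fabp3, with 34 to 58 counts a library, had the widest interval of the 10. Shares over all genes of a family and ratios to other adipocyte markers were added after seeing the data.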
